A study of Mus musculus with 4 samples.

Results

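Cdx1, Cdx2, Cdx4 and Nkx1-2 are homeobox genes of the elongating body axis, and their transcript levels were followed in whole mouse embryos with and without Ddx6. They were taken by symbol from the table of raw counts, which held 24421 genes, and all 4 were found. Each had at least 10 counts in at least 1 library, as did 14393 genes of the table.

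All embryos were of the ICR strain, and poly(A) RNA of whole embryos was sequenced in 4 libraries. Wild-type embryos gave 1 library at day 7.5 of development (E7.5 WT) and 1 at day 8.5 (E8.5 WT), and Ddx6 -/- embryos of day 8.5 gave 2 (KO1 and KO2). Values quoted without a library name run from the younger to the older WT stage and then to KO1 and KO2. The null allele lacked exon 5 of Ddx6, was made by CAG-Cre deletion of a floxed allele, and was brought to homozygosity by intercrosses of heterozygotes. Each KO library was a pool: KO1 held 1 embryo from before head-fold formation and 1 with head folds, while KO2 held 3 embryos of the earlier form. How many embryos made up each WT library is not given in the sources used here. The embryos of a pool cannot be told apart in its counts.

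Vertebrate axes grow from the back. Progenitors around the primitive streak and later in the tail bud supply spinal cord and mesoderm for most of the trunk and tail, and Wnt, FGF and retinoic acid signals set their output. The 3 mammalian Cdx genes encode homeodomain transcription factors of the caudal family that act downstream of these signals in the posterior embryo, switch on trunk Hox genes and keep the progenitor zone supplied with Wnt and FGF ligands. Their losses shorten the axis and shift vertebral identity, and the genes partly stand in for each other. Cdx2 is also needed in trophectoderm, so it is expressed outside the embryo proper before the others. Nkx1-2 encodes an NK-type homeodomain protein of the caudal lateral epiblast and is widely used to mark neuromesodermal progenitors, the bipotent cells that give rise to both spinal cord and paraxial mesoderm.

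Because the Cdx genes are paralogs, the sequences that separate them are shown. In GENCODE M21 on GRCm38, exon 2 of each Cdx gene is 146 bases and codes for part of the homeodomain, the stretch in which the family is most alike. Cdx2 and Cdx4 share 118 of these bases (80.8%) and differ at 28, which are in capitals below. Cdx2 is read from chr5:147303181-147303326 on the minus strand and Cdx4 from chrX:103328009-103328154 on the plus strand, both 5′ to 3′.
Cdx2 exon 2: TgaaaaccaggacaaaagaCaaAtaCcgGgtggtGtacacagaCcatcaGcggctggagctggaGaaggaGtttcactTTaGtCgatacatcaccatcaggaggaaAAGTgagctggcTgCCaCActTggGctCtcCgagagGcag
Cdx4 exon 2: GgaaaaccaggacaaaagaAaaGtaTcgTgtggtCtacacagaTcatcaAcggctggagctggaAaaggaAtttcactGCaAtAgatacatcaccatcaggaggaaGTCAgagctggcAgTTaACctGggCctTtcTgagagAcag
The longest run of bases common to the mature transcripts of Cdx2 and Cdx4 was 22. Cdx1 shared 112 bases of the exon with Cdx2 (76.7%) and 115 with Cdx4 (78.8%), and its longest common runs with them were 16 and 17 bases. Nkx1-2 shared no run longer than 15 bases with any Cdx transcript.

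Promoters, from 250 bases before to 50 after the RefSeq start (GRCm38.p6), were at hand for 3 of the 4 genes. They are shown for Cdx2 and Cdx4. In KO2 the levels of both genes were below those of both WT libraries, and so was that of Nkx1-2, whose promoter is not shown. Cdx2 lies at chr5:147307200-147307499 on the minus strand and Cdx4 at chrX:103321148-103321447 on the plus strand. Capitals mark the octamer ATGCAAAT, a motif known to be bound by POU-domain factors.
Cdx2 promoter: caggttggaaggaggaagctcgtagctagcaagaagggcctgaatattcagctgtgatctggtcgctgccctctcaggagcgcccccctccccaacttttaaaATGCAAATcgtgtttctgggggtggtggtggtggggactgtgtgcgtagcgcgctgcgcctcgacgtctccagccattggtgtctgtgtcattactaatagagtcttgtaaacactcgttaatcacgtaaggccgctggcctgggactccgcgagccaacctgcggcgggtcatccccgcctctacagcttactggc
Cdx4 promoter: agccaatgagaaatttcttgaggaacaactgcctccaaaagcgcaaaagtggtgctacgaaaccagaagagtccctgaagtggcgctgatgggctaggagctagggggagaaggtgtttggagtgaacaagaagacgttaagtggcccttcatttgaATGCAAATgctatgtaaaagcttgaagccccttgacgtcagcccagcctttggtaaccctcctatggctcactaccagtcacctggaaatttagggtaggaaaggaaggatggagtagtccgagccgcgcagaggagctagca
The octamer was looked for on both strands (its reverse complement is ATTTGCAT), after these sequences had been seen. Counted from the start, it began at -147 in Cdx2 and at -93 in Cdx4, in the sense direction in both, and was not in the Nkx1-2 window. Of all 32851 mouse promoters of this length, 570 (1.74%) held it. TTTATG, a motif of caudal homeodomain proteins, CTTTGA, a core motif of TCF/LEF factors, and AGGTCA, a retinoic acid receptor half-site, were in none of the 3 windows, and were in 11.9%, 16.0% and 16.3% of all promoters on either strand. CCAAT, a common promoter element, was found 1 time in Cdx2, 1 time in Cdx4 and 2 times in Nkx1-2, and in 37.4% of all promoters. None of these matches overlapped the octamer. GC content was 57.3% in Cdx2 with 18 CpG sites, 50.3% in Cdx4 with 8, and 67.3% in Nkx1-2 with 21, against medians of 52.7% and 7 over all promoters.

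The genes lie on 4 chromosomes. In GRCm38, Cdx1 (ENSMUSG00000024619.8) spans 61018862 to 61036199 of chromosome 18 on the minus strand, with 1750 exon bases. Cdx2 (ENSMUSG00000029646.3) spans 147300805 to 147307270 of chromosome 5 on the minus strand, with 2261. Cdx4 (ENSMUSG00000031326.2) spans 103321398 to 103330592 of chromosome X on the plus strand, with 1963. Each of them has 3 exons and overlaps no other annotated gene. Nkx1-2 (ENSMUSG00000048528.7) spans 132594878 to 132599637 of chromosome 7 on the minus strand, with 2 exons of 3264 bases. It lies within the annotated span of Fgfr2 on the same strand, with 0 exon bases in common, and shares 541 exon bases with Gm16764 on the opposite strand. Counting was by strand.

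The smallest library was KO1 with 8198402 counts and the largest E8.5 WT with 12562640, and TMM factors (trimmed mean of M-values, a scaling of library size) from 0.978 to 1.02. Ddx6 itself had 2943 and 5715 counts at the WT stages, against 706 in KO1 and 929 in KO2, so both KO libraries carried the loss that their labels state. Marker lists of other tissues differed between libraries. The 9 listed genes of extraembryonic ectoderm and chorion summed to 560, 289, 283 and 453 CPM (counts scaled to library size), of which Eomes, also a gene of the primitive streak, made up 56.7% in KO2. Fgfr2 made up 45.7% of that sum in E8.5 WT and 48.9% in KO1. The 8 listed genes of giant cells and ectoplacental cone summed to 276, 201, 452 and 868 CPM, of which Hand1, also a gene of embryonic mesoderm, made up 93.4% in KO1. The 7 epiblast genes summed to 2182, 563, 742 and 3171 CPM, of which Dnmt3b alone made up 70.1%, 79.9%, 77.1% and 73.6%. KO2 stood apart from KO1 in these sums, so each result is given for each KO library.

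In wild type, the 4 genes differed in how far they moved between the stages. Cdx1, which acts early in vertebral patterning, had 118 counts at the younger stage (E7.5 WT) and 1391 at the older. Cdx4, the X-linked paralog, had 27 and 387. Both were far higher in the older embryo, by 11.4-fold (log2 change of E7.5 against E8.5 -3.49, counting interval -3.80 to -3.24) and 13.9-fold (-3.69, -4.41 to -3.23). Nkx1-2 had 359 counts at the younger and 837 at the older stage, a 2.26-fold difference (-1.17, -1.36 to -0.99). Cdx2 had 990 and 1326, a 1.30-fold difference (-0.37, -0.49 to -0.25), and was the member that changed least. A log2 change below -1, the fold rule of the study's methods, was met by Cdx1, Cdx4 and Nkx1-2, and by 1759 of the 14393 genes (12.2%). With 1 library per stage there is no test, and intervals (exact, 95%) cover counting error only.

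Genes of the extraembryonic ectoderm, in which Cdx2 is known to act, did not move as one between the WT stages. By the fold rule 5 of 9 were higher at the younger stage, as were 1125 of all 14393 genes. Lower there was 1 of 9, as were 1759 of all genes (12.2%). Elf5, a trophoblast stem cell factor, had 795 counts there and 3 in E8.5 WT, and Wnt7b, a chorion gene, had 762 and 19. KO1 had 3 counts of Elf5 and 8 of Wnt7b, and KO2 had 10 and 16. Eomes had 1333, 64, 77 and 3128 counts and Gata3 193, 220, 165 and 213, so the genes of the list differed in how KO2 stood to E7.5 WT. The part of these cells in the Cdx2 level of E7.5 WT was not tested.

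**Figure D1:**
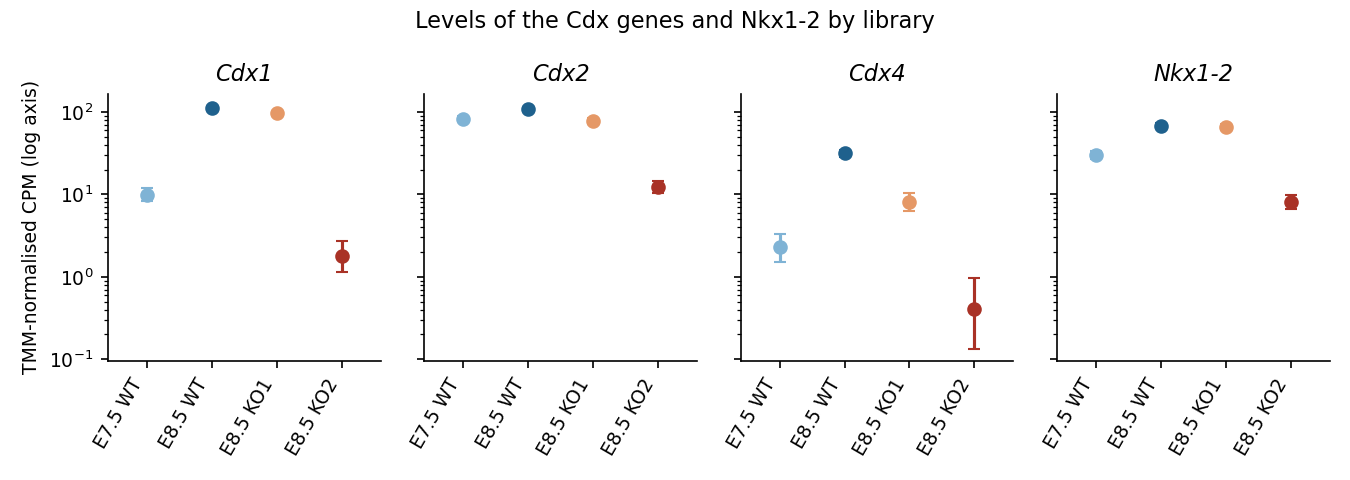
TMM-normalised CPM (counts scaled to library size, log axis) of Cdx1, Cdx2, Cdx4 and Nkx1-2 in the 4 libraries; points are single libraries and bars are exact 95% Poisson intervals of the count, which are smaller than the point for high counts. KO2 is the lowest library for each gene, and KO1 lies near E8.5 WT for Cdx1 and Nkx1-2 but not for Cdx4.

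The next comparison asked how the 4 genes stood in Ddx6 KO embryos of the same age. The answer differed between the pools. In KO2 all 4 were lower than in E8.5 WT. As ratios of normalised counts, Cdx2 and Nkx1-2 were more than 8-fold lower and Cdx1 and Cdx4 more than 60-fold. The log2 changes carry a prior count that these folds do not, so at low counts they imply a smaller fold. In KO1 only Cdx4 passed the fold rule.

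Cdx1 had 806 counts in KO1 and 22 in KO2, against 1391 in E8.5 WT, or 96.0, 1.81 and 113 CPM. KO1 was 1.18-fold below E8.5 WT (log2 change -0.24, interval -0.36 to -0.11) and KO2 was 62.7-fold below it (-5.84, -6.65 to -5.37). KO1 thus lay close to WT of the same day of development, and KO2 below every other library.

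Cdx4 had 68 counts in KO1 and 5 in KO2, against 387 in E8.5 WT, or 8.10, 0.410 and 31.5 CPM. Both KO libraries were lower than E8.5 WT, KO1 by 3.89-fold (log2 change -1.94, interval -2.35 to -1.58) and KO2 by 76.7-fold (-5.75, -7.89 to -5.03). The KO2 value rests on 5 reads, and its interval spans nearly 3 log2 units.

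Cdx2 had 653 counts in KO1 and 150 in KO2, against 1326 in E8.5 WT, or 77.8, 12.3 and 108 CPM. KO1 was 1.39-fold below E8.5 WT (log2 change -0.47, interval -0.61 to -0.34) and KO2 8.77-fold (-3.11, -3.39 to -2.89). Nkx1-2 had 556 counts in KO1 and 99 in KO2, against 837 in E8.5 WT, or 66.2, 8.12 and 68.1 CPM. Its interval in KO1 spanned 0 (log2 change -0.04, -0.20 to 0.12), and KO2 was 8.38-fold lower (-3.04, -3.38 to -2.77). The progenitor marker and Cdx2 were lower than E8.5 WT to a like extent in KO2, where the difference between their log2 changes was 0.06 (interval -0.34 to 0.46). Against E7.5 WT that difference was 0.86 (0.44 to 1.28), Cdx2 being further below.

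Read against the background, 1 of the 4 genes (Cdx4) was lower than E8.5 WT in KO1, where 476 of all genes were (3.31%). In KO2 it was 4 of 4, where 850 of all genes were (5.91%). In both KO libraries it was Cdx4 alone, where 257 genes were (1.79%). Ordered from the most reduced of 14393 genes in KO2, Cdx1 was number 12 and Cdx4 number 13, Cdx2 number 99 and Nkx1-2 number 105. In KO1, Cdx4 was number 111, Cdx2 number 1607, Cdx1 number 3627 and Nkx1-2 number 6639. The median log2 change of the 4 genes was -0.35 in KO1 and -4.43 in KO2, while that of all genes was -0.01 and -0.00. In whole-embryo RNA, fewer progenitor cells and less RNA per cell cannot be told apart.

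Over both KO libraries, Cdx4 had a mean log2 change of -3.84 ± 2.70 (SD, n = 2), Cdx1 of -3.04 ± 3.96, Cdx2 of -1.79 ± 1.87 and Nkx1-2 of -1.54 ± 2.12. The spread between the KO libraries was larger than the mean change for 3 of the 4 genes, the exception being Cdx4. The edgeR quasi-likelihood test, fitted over all genes with both WT stages in the model, gave adjusted p values of 0.666 for Cdx4 (log2 -2.92 ± 1.43 SE), 0.724 for Cdx2 (-1.27 ± 1.04), 0.820 for Nkx1-2 (-0.89 ± 1.17) and 0.844 for Cdx1 (-1.22 ± 1.83). These fitted changes come from the counts of both libraries, in which KO1 weighs more, and lie closer to 0 than the means of the separate changes. The test called 0 of 14393 genes (0%), Ddx6 included (adjusted p = 0.196), and 1052 genes had an unadjusted p under 0.05, none of them among the 4. DESeq2 called 31 of 11881 genes with an adjusted p (0.261%), Ddx6 among them and none of the 4. Cdx4 had an unadjusted p of 0.0159 in DESeq2 and an adjusted p of 0.802. Every fold above against WT is therefore a difference between libraries, not one past the spread between the KO libraries. That spread also holds the differences of the pools in morphological stage and, by their Xist counts, in sex. The authors, too, judged the KO libraries too variable to support statistical significance.

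**Figure D2:**
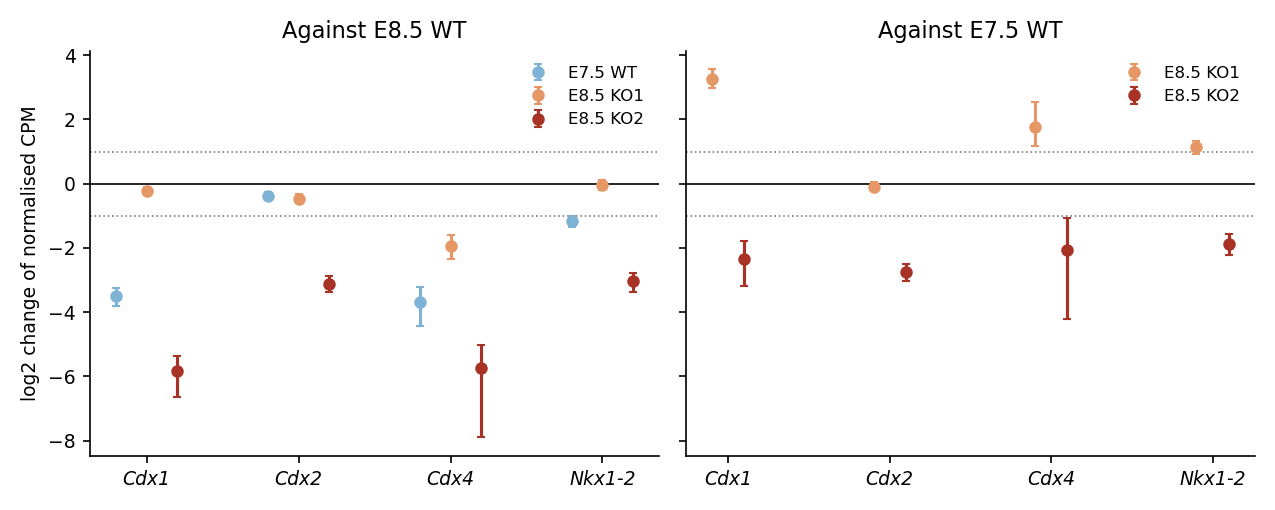
log2 change of normalised CPM against E8.5 WT (left) and against E7.5 WT (right) for each gene, with exact 95% intervals for counting error; each point is 1 library and dotted lines mark the fold rule of 1 and -1. KO2 is below both WT stages for all 4 genes, and KO1 is above E7.5 WT for Cdx1, Cdx4 and Nkx1-2.

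Because the KO embryos were delayed in form, their levels were also set against the younger WT stage. KO1 was above E7.5 WT for Cdx1 by 9.67-fold (log2 change 3.25, interval 2.99 to 3.57), for Cdx4 by 3.57-fold (1.76, 1.17 to 2.54) and for Nkx1-2 by 2.19-fold (1.13, 0.94 to 1.33). These 3 of 4 genes passed the rule upward, as did 1893 of all genes (13.2%). Cdx2 did not differ beyond counting error (-0.10, -0.24 to 0.05). Along the wild-type range, KO1 thus lay near the E8.5 end for Cdx1 and Nkx1-2 and between the stages for Cdx4.

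KO2 lay outside that range. Against E7.5 WT it was lower for Cdx2 by 6.76-fold (log2 change -2.74, interval -3.01 to -2.51), for Cdx4 by 5.53-fold (-2.06, -4.20 to -1.07), for Cdx1 by 5.50-fold (-2.35, -3.19 to -1.79) and for Nkx1-2 by 3.72-fold (-1.87, -2.23 to -1.57). All 4 passed the rule downward, where 584 of all genes did (4.06%). Below both WT stages by the rule were again all 4, and 172 genes of the table (1.2%). The 2 comparisons share KO2, and E7.5 WT and E8.5 WT have 1 library each. In edgeR, the KO libraries as a group against E7.5 WT gave adjusted p values from 0.551 for Cdx1 to 0.901 for Nkx1-2. That test called 0 of 14393 genes (0%), with 3511 at an unadjusted p under 0.05 and none of the 4 among them, and DESeq2 called 721 of 11602 (6.21%), again without any of the 4.

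Between the KO libraries, every member was lower in KO2 by the rule, as were 704 of all genes (4.89%). The ratio was 53.2-fold for Cdx1 (log2 change -5.60), 19.7-fold for Cdx4 (-3.81), 8.15-fold for Nkx1-2 (-3.00) and 6.32-fold for Cdx2 (-2.64). Cdx1 ranked number 6 of 14393 genes in this direction. The order of the levels over libraries, from high to low, was E8.5 WT, KO1, E7.5 WT and KO2 for Cdx1, Cdx4 and Nkx1-2. For Cdx2 it was E8.5 WT, E7.5 WT, KO1 and KO2. Neighbours that did not differ beyond counting error were E8.5 WT and KO1 for Nkx1-2, and E7.5 WT and KO1 for Cdx2.

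Levels of different genes can be compared per length of exon. On this scale (RPKM, the CPM divided by kilobases of exon), Cdx1 stood at 5.67, 64.7, 54.8 and 1.03. Cdx2 stood at 36.8, 47.7, 34.4 and 5.44 and Cdx4 at 1.16, 16.0, 4.13 and 0.209. Nkx1-2 stood at 9.25, 20.9, 20.3 and 2.49. Cdx4 was the least abundant Cdx transcript in every library, and Cdx1 passed Cdx2 in E8.5 WT and KO1 only.

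The make-up of the Cdx transcripts sorted the libraries into pairs. Cdx2 made up 84.4% of the summed Cdx RPKM in E7.5 WT and 81.4% in KO2, but 37.2% in E8.5 WT and 36.8% in KO1. Cdx1 made up 50.4% and 58.7% in the latter pair and 15.4% in KO2. Of the reads of the 3 genes, Cdx2 took 87.2% in E7.5 WT (exact 95% interval 85.1 to 89.1) and 84.7% in KO2 (78.6 to 89.7), intervals that overlap, and 42.7% (41.0 to 44.5) and 42.8% (40.3 to 45.3) in E8.5 WT and KO1. KO2 was thus close to the younger WT stage in proportions and lower in total, the summed Cdx RPKM being 43.6 and 128 at the WT stages, 93.4 in KO1 and 6.68 in KO2. The KO2 shares rest on 177 reads, 22 of them of Cdx1 and 5 of Cdx4. The part of extraembryonic tissue in the Cdx2 shares was not tested.

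**Figure D3:**
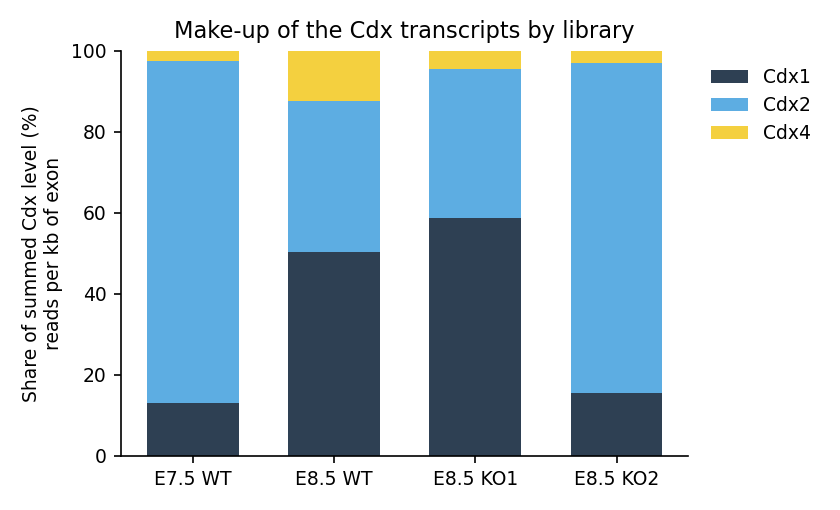
Share (%) of Cdx1, Cdx2 and Cdx4 in the summed Cdx level, in reads per kilobase of exon, for each library (stacked bars, 1 library each). Cdx2 takes 84.4% and 81.4% in E7.5 WT and KO2, and Cdx1 takes 50.4% and 58.7% in E8.5 WT and KO1.

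Cdx4 stood out in KO1. It took 12.5% of the Cdx reads in E8.5 WT (11.3 to 13.7) and 4.45% in KO1 (3.47 to 5.61), intervals that do not overlap. Within the library, its log2 change against E8.5 WT was lower than that of Cdx1 by -1.72 (interval -2.14 to -1.32), than that of Cdx2 by -1.49 (-1.90 to -1.08) and than that of Nkx1-2 by -1.92 (-2.34 to -1.51). In KO2 the difference between Cdx4 and Cdx1 was -0.29 (-2.06 to 1.16), which counting error spans. These intervals compare reads of 2 libraries and carry no replicate error.

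A read of a member can be counted against a read of another gene of the posterior embryo in the same library, which takes the scaling out. T (Brachyury), the T-box factor of the primitive streak and notochord, had 3864, 934, 829 and 1485 counts. Per read of T, there were 1.42 reads of Cdx2 in E8.5 WT, 0.788 in KO1, 0.256 in E7.5 WT and 0.101 in KO2 (exact 95% interval 0.0848 to 0.120). Nkx1-2 gave 0.896, 0.671, 0.0929 and 0.0667 reads in that order. KO2 had more T and fewer of each member than E8.5 WT. Cdx1 gave 1.49, 0.972, 0.0305 and 0.0148 reads per read of T, and Cdx4 0.414, 0.0820, 0.00699 and 0.00337, so both were lowest in KO2, though for Cdx4 the intervals of E7.5 WT (0.00460 to 0.0102) and KO2 (0.00109 to 0.00788) overlap.

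The ratio to Sox2, which is expressed with T in neuromesodermal progenitors but also in the whole neural plate and epiblast, separated KO2 in the same way. Sox2 had 607, 1322, 473 and 1174 counts. Cdx2 had 1326 reads to these 1322 in E8.5 WT, and 0.128 reads per read of Sox2 in KO2, 1.38 in KO1 and 1.63 in E7.5 WT. Eomes, the T-box factor of the early streak and of extraembryonic ectoderm, ran the other way, with 20.9 reads per read of Cdx2 in KO2, 0.118 in KO1, 0.0483 in E8.5 WT and 1.35 in E7.5 WT.

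**Figure D4:**
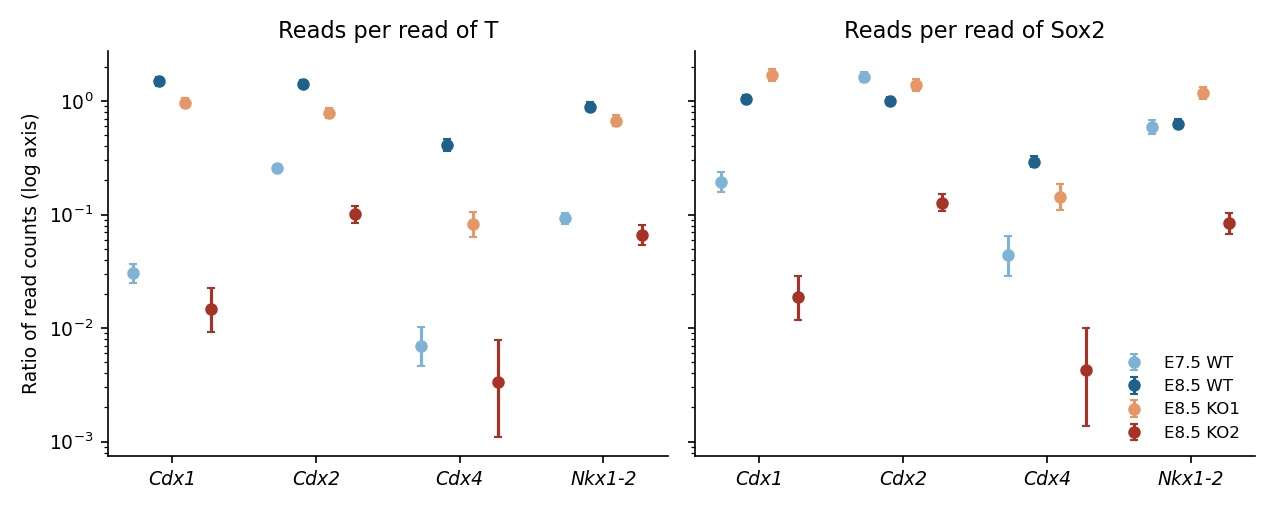
Reads of each gene per read of T (left) and of Sox2 (right) within each library, on a log axis, with exact 95% intervals for counting error. KO2 is the lowest library for every gene in both panels, with overlapping intervals of KO2 and E7.5 WT for Cdx4 per read of T.

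The other genes of the progenitor zone were split. Of 14 listed axial progenitor genes, 3 were below E8.5 WT by the fold rule in KO1, where 3.31% of all genes were, and 6 in KO2, where 5.91% were. None was higher, where 716 of all genes were in KO1 (4.97%) and 1354 in KO2 (9.41%). The medians were -0.46 and -0.42. The same shares of all genes stand behind the counts of the lists that follow. Hes3, a transcriptional repressor of undifferentiated neural progenitors, had 1, 306, 79 and 0 counts. Along with Fgf17 and Epha5, it was lower in both KO libraries. In KO2 the log2 changes of the others past the rule were -2.98 for Mnx1, a motor neuron and notochord gene at 0, 31, 17 and 2 counts, -1.54 for Wnt5b and -1.40 for Sp8. Sp5, a direct target of Wnt signalling, had 634, 475, 357 and 653 counts, Evx1 562, 369, 184 and 363, and Cyp26a1, which breaks down retinoic acid, 996, 572, 223 and 667. In KO2 these 3 genes, with T, Sox2, Greb1, Gdf11 and Rspo3, were not past the rule.

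Among the signals known to act on Cdx genes, 14 genes were listed. By the rule, 1 was lower in KO1 and 4 in KO2, 1 was higher in each, and the medians were 0.14 and -0.27. Wnt3, the ligand of the early streak, had 124, 46, 88 and 325 counts, and was higher than E8.5 WT in both KO libraries (log2 change 1.44 and 2.78). Wnt3a, the later ligand of the streak and tail bud, had 133, 180, 137 and 33 counts and was lower in KO2 (-2.36) but not in KO1 (0.15). KO2 thus had more Wnt3 and less Wnt3a than either WT stage.

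Aldh1a2, which makes retinoic acid in paraxial mesoderm, had 80, 1723, 1385 and 78 counts. Rarb, a receptor gene that retinoic acid itself induces, had 21, 296, 246 and 92. Both were near E8.5 WT in KO1 (log2 change 0.23 and 0.28) and lower than it in KO2 (-4.42 and -1.65), as Cdx1 was. Fgf8, the FGF of the streak, had 138, 217, 65 and 226 counts and went the other way, lower in KO1 (-1.17) and not in KO2 (0.07). Against E7.5 WT the likeness to Cdx1 did not hold in KO2. There Aldh1a2 did not differ beyond counting error (-0.07, interval -0.54 to 0.40), Rarb was higher (1.99) and Cdx1 was lower (-2.35). Of the genes that transmit the Wnt signal in the nucleus, Ctnnb1, Lef1, Tcf7 and Tcf7l1, none passed the rule, and the furthest from E8.5 WT was Tcf7l1 in KO2 (log2 change 0.91).

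Hox genes are the best known targets of Cdx proteins, and the listed ones of paralog groups 5 to 9, the trunk groups, were lower than E8.5 WT in 10 of 14 cases in KO1 and 14 of 14 in KO2 (medians -1.61 and -3.78, the latter -3.65 with the 2 genes at 0 counts set to a floor of 3). Hoxb8 had 25, 449, 135 and 12 counts, and Hoxb9 had 11, 451, 67 and 4. Hoxc8 had 0, 134, 8 and 1. In the anterior groups 1 to 4, 3 of 12 were lower in KO1 and 12 of 12 in KO2 (medians -0.35 and -3.52, the latter -3.44 at the floor). By median, KO1 was thus near E8.5 WT at the anterior groups and lower at the trunk groups. Single genes did not follow this split. In KO1 the anterior genes Hoxc4 (log2 change -2.93), Hoxd4 (-2.04) and Hoxd3 (-1.73) were lower. The trunk genes Hoxb5 (0.29), Hoxb6 (-0.38), Hoxa5 (-0.48) and Hoxd9 (-0.76) were not past the rule. E7.5 WT was also lower than E8.5 WT in 14 of 14 trunk genes (median -3.57) and 10 of 12 anterior genes (-2.47). Of all genes, 12.2% were lower there. KO2 was lower than E7.5 WT in 4 of 14 trunk genes (median -0.33) and 8 of 12 anterior genes (-1.17), and higher in 0 of either. The share of all genes lower in that comparison was 4.06%. Of 7 measured genes of groups 10 to 13, 4 were lower in KO1, and 2 were lower and 1 higher in KO2 (medians -1.69 and -0.63).

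Other genes with a known dependence on Cdx proteins split. Of 7 listed (T, Wnt3a, Fgf8, Cyp26a1, Dll1, Mesp2 and Pax3), 1 was lower in KO1, 2 were lower and 1 higher in KO2, and the medians were 0.15 and 0.07. Pax3, a neural tube and somite gene, had 9, 159, 57 and 13 counts and was lower in KO2 (-3.40), while Mesp2, a segmentation gene, had 69, 11, 10 and 72 and was higher (2.50). edgeR called 0 genes in each of these lists, as it did over the table.

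**Figure D5:**
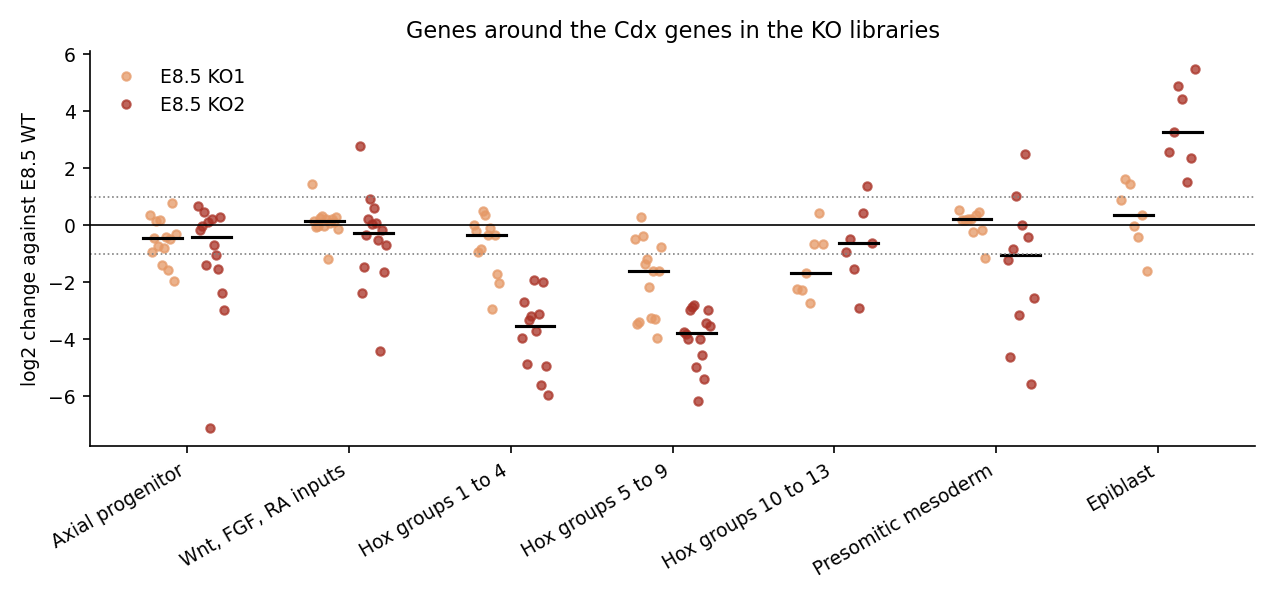
log2 change against E8.5 WT of the listed genes in KO1 and KO2 (points are genes, black bars the list medians, dotted lines the fold rule; genes at 0 counts are drawn at their value with a prior count of 2). Hox groups 1 to 4 have medians of -0.35 and -3.52, and the axial progenitor list has medians of -0.46 and -0.42.

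Tissues derived from the progenitor zone were read with the same rule. Of 10 genes of presomitic and somitic mesoderm, 1 (Tcf15) was lower in KO1 and 5 were lower in KO2, where 2 were higher, with medians of 0.21 and -1.03. Msgn1, which drives presomitic fate, had 38, 127, 99 and 3 counts, and Tbx6, which holds it against neural fate, had 351, 218, 215 and 91. Of 6 measured neural tube genes, 2 (Sox1 and Pax6) were lower in KO1, and 4 were lower and 1 higher in KO2, with medians of -0.78 and -2.51. In gut endoderm, a later site of Cdx2, 1 of 7 was lower and 1 higher in KO1, 2 lower and 1 higher in KO2, and the medians were 0.33 and 0.23.

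Cdx2 and Cdx4 are also expressed toward the allantois, and its markers differed too. Tbx4, a T-box gene of the allantois and hindlimb, had 20, 799, 56 and 5 counts. Over 5 listed allantois genes, 3 were lower in KO1 and 4 in KO2 (medians -1.69 and -1.55), and their sums were 42.5, 127, 41.6 and 17.9 CPM. Their part in the lower Cdx4 of KO1 was not tested. Extraembryonic ectoderm and chorion genes did not move together in KO1 (0 of 9 either way) and had 3 higher and 1 lower in KO2, 1 of the 3 being Elf5 at 10 counts. Of the giant cell and ectoplacental list, 4 of 5 measured genes were higher in KO2. Prl3d1, a giant cell hormone, had 27, 1, 3 and 4156 counts and Prl2c2 3, 0, 4 and 1400, so that in KO1 both were too low to compare, and Hand1 was higher there (log2 change 1.22). Prl3b1 and Tpbpa were at 0 in all 4 libraries. All 7 epiblast genes were higher in KO2, and 2 were higher and 1 lower in KO1. In E7.5 WT all 7 were higher than in E8.5 WT too (median 2.49), where 1125 of 14393 genes were. Against E7.5 WT, 3 of 7 were higher in KO2 and 0 lower, where 1564 of all genes were higher. The part of these tissues in the members' levels in KO2 was not tested.

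Among the members, the patterns over libraries were closest for Cdx1 with Cdx4 and for Cdx2 with Nkx1-2. Likeness was taken as the Euclidean distance between the 3 log2 changes against E8.5 WT (E7.5 WT, KO1 and KO2), over 11222 genes that averaged 50 or more counts. Cdx1 was 1.71 from Cdx4 and 4.14 from Cdx2, and Cdx2 was 0.908 from Nkx1-2 and 4.48 from Cdx4. Other genes lay nearer in each case. By distance, Cdx4 was number 5 from Cdx1, and Cdx1 number 8 from Cdx4. Nkx1-2 was number 6 from Cdx2, and Cdx2 number 12 from Nkx1-2. The genes nearest to Cdx1 were Hoxa3 (1.23), Hoxb8 (1.37), Npr3 (1.48), Rfx4 (1.67) and Cdx4 itself. Those nearest to Cdx4 were Hoxd4 (0.435), Hoxb8 (1.13), Hoxa3 (1.34), Hoxb9 (1.46) and Cyp26c1 (1.55). The nearest to Cdx2 were Pitx1 (0.493), S1pr1 (0.692), Foxb1 (0.706), Hes7 (0.710) and Gbx2 (0.790), and the nearest to Nkx1-2 were Foxb1 (0.272), Nos3 (0.382), Gbx2 (0.475), Rasip1 (0.608) and Hes7 (0.737). The 3 changes share 1 WT library, and with 4 libraries the distances are a description.

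Genes within 250 kb of the members differed in how they stood. Pdx1, the nearest gene of the ParaHox cluster to Cdx2, had 27, 19, 13 and 15 counts. Pdgfrb, a mesenchymal receptor gene 8.95 kb from Cdx1, had 174, 665, 403 and 205 counts, with log2 changes against E8.5 WT of -0.17 (KO1) and -1.67 (KO2). Fgfr2, whose span holds Nkx1-2, had 976, 1623, 1162 and 899, with 0.07 and -0.84. Chic1, 25.9 kb from Cdx4, had 90, 289, 193 and 185, with -0.03 and -0.63.

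Cdx4 lies 130 kb from Xist, the RNA that coats the inactive X of females. Xist had 46, 17, 15 and 17340 counts, and 4 Y-linked genes summed to 1100, 2179, 1584 and 0, so KO2 differed from the other libraries in sex. The median log2 change of 508 X-linked genes against E8.5 WT came to -0.04 (KO1) and -0.03 (KO2), near that of 13361 autosomal genes (-0.01 and -0.00). The part of sex in the Cdx4 level of KO2 was not tested.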

How the data were processed

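RNA of whole mouse embryos was sequenced in 4 libraries with a stranded poly(A) kit. The authors deposited raw counts per gene. According to their methods and processing notes, reads were checked with FastQC 0.11.7, trimmed with cutadapt 2.8, aligned to mm10 with HISAT2 2.1.0, handled with SAMtools 1.9 and counted by strand over exons with featureCounts 2.0.0, so reads shared by paralogs or overlapping genes could be lost. Groups came from the sample labels. Counts were TMM-normalised over the whole table in edgeR 4.0.16 (R 4.3.3), log2 CPM used a prior count of 2, and 14393 of 24421 genes had at least 10 counts in at least 1 library. Folds and counting intervals were taken from the counts scaled to library size, without a prior count. At low counts a fold is thus larger than its log2 change implies. A log2 change past 1 or -1 was the fold rule, required of both KO libraries for a call of KO. Tests were two-sided edgeR quasi-likelihood F-tests over all kept genes with Benjamini-Hochberg adjustment at 0.05, with 3 groups, so the spread came from the 2 KO libraries (biological coefficient of variation 27.5%). These were separate pools, with the make-up given above, and the authors reported variability between them. Nothing further on their independence is given in the sources used here. DESeq2 1.42.0 was the alternative. Intervals are exact at 95% (binomial or Poisson) and cover counting error only, since they come from the counts of single libraries. The reads carried no molecular identifiers, so copies of the same molecule could be counted as separate reads and the intervals may be too narrow. Exon lengths and positions came from GENCODE M21. Figures were drawn with matplotlib 3.10.9. The pipeline was tested on simulated data. The members and gene lists were chosen with earlier results of these data known. Named are the members, Ddx6, genes of these lists and the 5 genes nearest in pattern to each member. Neighbouring and sex-linked genes, and the octamer, are outside this rule and were picked once values were seen. Values of some single listed genes are not reported here.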

Additional observations from a re-analysis of the deposited data

How the results depend on the processing

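The calls rest on which KO library is used. With 1 KO library left out at a time, the mean change on the log2 scale from E8.5 WT ranged from -5.84 to -0.24 for Cdx1, from -3.11 to -0.47 for Cdx2, from -5.75 to -1.94 for Cdx4 and from -3.04 to -0.041 for Nkx1-2, the lower value in each case being without KO1, and 4 members (without KO1) or 1 (without KO2) passed the fold rule. Against E7.5 WT the ranges were -2.35 to 3.25 for Cdx1, -2.74 to -0.10 for Cdx2, -2.06 to 1.76 for Cdx4 and -1.87 to 1.13 for Nkx1-2, and 4 members were lower without KO1 and 0 without KO2. A threshold of 2 ended the call of Cdx4 against E8.5 WT (mean -3.84), left 0 members past it, and ended that of Nkx1-2 between the WT stages (-1.17). Coding length in place of exon length put the share of Cdx2 in E8.5 WT at 39.4%. No paired analysis was possible because the WT groups have 1 library each.

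Of 148 alternative values, 132 kept their direction and call. Of 44 alternative tests of the members, 0 passed an adjusted p of 0.05, the lowest being 0.529. The least sampled value was Cdx4 in KO2.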
